A study of Homo sapiens with 16 samples.

Results

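Nascent transcription of LNCaP cells that received neither ionizing radiation (IR) nor the antiandrogen enzalutamide was described from the untreated samples of the series. They were chosen by their labels alone and make up 4 of 12 samples, or 6 of 16 sequenced libraries. LNCaP is a human prostate cancer cell line that responds to androgens. In batch 1 the treatment is given as mock, and each of replicates 1 and 2 was sequenced as a t1 and a t2 library, which were summed. In batch 2 the treatment is given as mock plus vehicle, for replicates 3 and 4. The protocol, written once for the whole series, describes cells grown for 2 days in complete medium with 5% serum and then kept for 90 min with the solvent dimethyl sulfoxide as control. All samples share that medium. The irradiated samples without enzalutamide, 2 per batch, are labelled as 6 Gy of IR in batch 1 and as 6 Gy of IR plus vehicle in batch 2. The protocol gives 30 min of vehicle before the dose and 60 min of incubation after it. They served below as a separate set in which to read the same difference between batches. Mock against vehicle label, batch and replicate numbers 1 and 2 against 3 and 4 coincide, so their parts cannot be told apart. Nothing in the labels says that replicates were separate cultures, so the p-values below measure the spread between these samples, which may be technical.

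Precision run-on sequencing (PRO-seq) maps RNA polymerases that are engaged on DNA, by letting them add a labelled nucleotide to the transcript they are making. Its counts read transcription in progress rather than RNA stock, and a long gene collects more counts than a short one at the same density of polymerase. In prostate luminal cells androgen signalling, together with the pioneer factor FOXA1 and the homeodomain factor HOXB13, drives secretory genes such as the kallikreins KLK2 and KLK3, the latter encoding prostate-specific antigen.

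The samples held 8022989 and 9216926 counts in batch 1 and 16428667 and 19469608 in batch 2, and the 4 mock libraries behind batch 1 held between 3438642 and 5633290. Those 4 libraries stood closer by t number than by replicate number. Over genes with at least 50 counts, the median absolute log2 ratio was 0.142 and 0.206 between libraries that shared a t number, against 0.27 and 0.397 between the t1 and t2 libraries of 1 replicate. Mock libraries also lay nearer to irradiated libraries of the other t number (0.16 to 0.267, 8 pairs) than to those of the same t number (0.264 to 0.439, 8 pairs). With the replicate as a block, 4793 of 21031 genes (22.8%) differed between t2 and t1 in mock cells and 6115 of 24043 (25.4%) did so in irradiated cells (edgeR, adjusted p under 0.05). Of the 4784 genes called in mock and tested in irradiated cells, 4607 (96.3%) had the opposite sign there. No pair of libraries matched within sampling noise. What the t number stands for is not stated, and its part in the results was not tested. Summing t1 and t2 therefore makes the batch 1 replicates look more alike than their libraries were. Each call between batches was repeated with t1 alone, with t2 alone and with t1 and t2 as the replicates of batch 1. Where a call was lost that way, the value is given beside it.

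**Figure D1:**
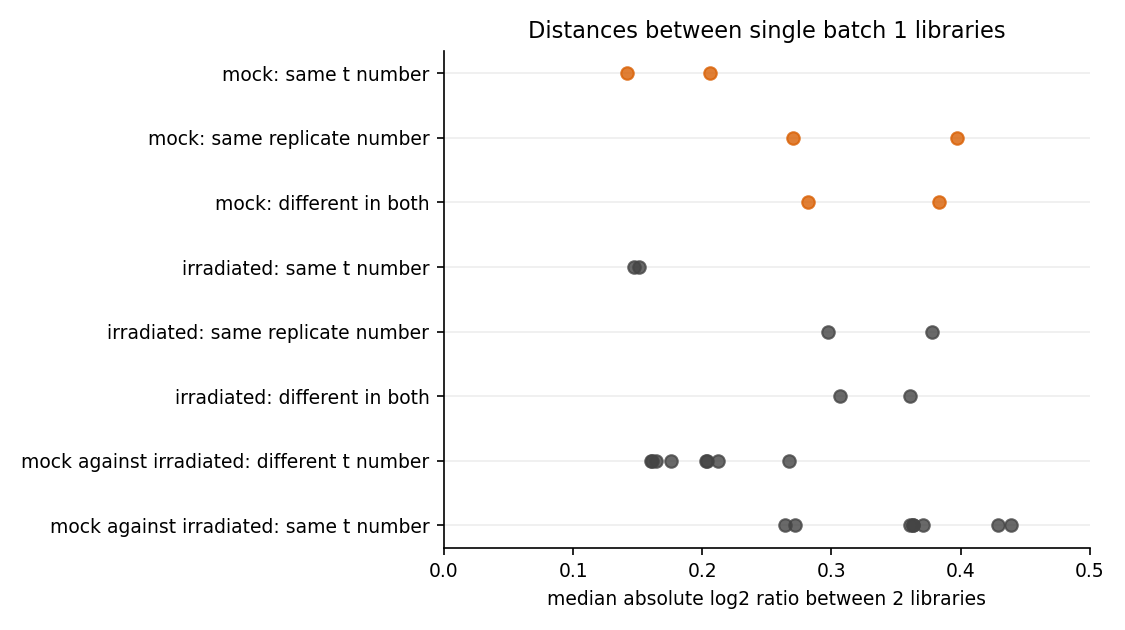
Each point is a pair of batch 1 libraries, placed on the x axis by the median absolute log2 ratio of their CPM over genes with at least 50 counts, and on the y axis by what the pair shares. Mock pairs with the same t number (0.142 and 0.206) lie left of the mock pairs with the same replicate number (0.27 and 0.397).

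At least 1 CPM (counts divided by the sample's total, as scaled by the trimmed mean of M values) was reached in all 4 samples by 22829 of 60605 annotated genes, among them 14653 of 19148 protein-coding genes (76.5%). No count was found in any of the 4 for 8490 genes. Transcription was spread over many genes: between 2460 and 2601 genes held 50% of a sample's counts, and the 10 most counted nuclear genes took 2.19% to 2.82%.

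The nuclear gene with the most counts was MIR99AHG, a host gene of microRNAs on chromosome 21 (RefSeq GRCh38.p14, chr21:16070488-16631727), which spans 561 kb. It had 5110 and 5938 CPM in the batch 1 samples and 6301 and 6217 in batch 2. The ranges did not overlap, but the difference was small and within the error (log2 difference, batch 2 minus batch 1, 0.18, SE 0.244, edgeR adjusted p = 0.562). Its single mock libraries split by t number, at 6079 and 7401 CPM in t1 and 4341 and 3761 in t2, and with t2 alone the host was called higher in batch 2 (0.64, adjusted p = 2.52e-05). MIRLET7BHG, a second microRNA host gene (chr22:46085997-46113928), had 1730, 1649, 1533 and 1633 CPM in replicates 1 to 4, with batch 1 narrowly above batch 2 and no called difference (-0.094, adjusted p = 0.695). Selected mature microRNAs encoded in these 2 hosts are shown because the hosts rank so high. They are not the full set, and MIR3619 and MIR4763, which also overlap MIRLET7BHG, are among those left out. Sequences are from RefSeq, 5′ to 3′, with the seed (bases 2 to 8) in capitals.
miR-99a-5p: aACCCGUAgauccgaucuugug
let-7c-5p: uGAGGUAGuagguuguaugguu
miR-125b-5p: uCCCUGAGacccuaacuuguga
let-7a-5p: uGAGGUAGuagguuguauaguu
let-7b-5p: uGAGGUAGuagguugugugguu
The 3 let-7 members, 1 from the chromosome 21 host and 2 from the chromosome 22 host, share the seed GAGGUAG, which differs from those of miR-99a-5p and miR-125b-5p. The let-7 family restrains growth-promoting messenger RNAs in differentiated cells. Over the hairpin of let-7c alone the counts were 81 and 64 in batch 1 and 75 and 64 in batch 2, from samples of unequal depth, or 10.3, 7.17, 4.47 and 3.24 CPM (log2 difference -1.18, adjusted p = 0.000771). The hairpin value thus differed in direction from the host gene's 0.18, on few counts. For the let-7b hairpin the CPM was 14.5, 9.64, 6.32 and 3.5 (-1.30, adjusted p = 0.000644). In both hairpins t1 of replicate 1 was the highest mock library, and both calls were lost with t2 alone (adjusted p = 0.434 for let-7c and 0.207 for let-7b) and with the span correction (0.0758 and 0.0517).

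Several of the other nuclear genes in the top 10 by CPM are very long genes of neuronal or signalling proteins. PRKD1, a protein kinase gene of 351 kb, had 1771, 2136, 2712 and 2511 CPM. PPFIA2, which encodes a liprin of synaptic scaffolds, and NCAM2, a neural cell adhesion gene, averaged 2204 and 2048 CPM in batch 2. The remaining members are PPP3CA (a calcineurin subunit), FBXL17 (an F-box protein), NAALADL2, ANK3 (ankyrin G), GOLGA1 and CCDC200. Of the 10, only CCDC200 and GOLGA1 passed the test between batches, and both were lower in batch 2. With t1 alone FBXL17 and NAALADL2 were lower as well (adjusted p = 0.0229 and 0.0242), but FBXL17 was at -0.022 and NAALADL2 at -0.04 with t2 alone. With t2 alone PRKD1, PPP3CA, PPFIA2, NCAM2 and ANK3 were called higher in batch 2, ANK3 at 0.86 (adjusted p = 2.2e-06). After the span correction FBXL17 and NAALADL2 were again called lower (adjusted p = 0.00242 and 0.0034). CCDC200, at 9.85 kb the shortest of the 10, had 5289 and 4342 CPM in batch 1 against 1271 and 1392 in batch 2 (log2 difference -1.85, SE 0.224, adjusted p = 5.69e-06). GOLGA1, which encodes a golgin of the Golgi membrane and overlaps SCAI, had 3129 and 3838 against 527 and 565 CPM (-2.67, SE 0.212, adjusted p = 7.29e-08). Its mock libraries stood at 2021 and 2187 CPM in t1 and 3816 and 6129 in t2, all above batch 2.

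Per kilobase of gene span, short and constitutively active genes led. Among protein-coding genes of at least 1 kb, by the mean over the 4 samples, the histone gene H2BC21 was first at 333 CPM per kb. It was followed by CCDC200 (312), the ribosomal protein gene RPL41 (173), the elongation factor gene EEF1A1 (118) and the stress transcription factor gene ATF4 (115). The next 5 were BOLA1, the linker histone gene H1-10, ID1, the ribosomal protein gene RPL36 and CSKMT, between 102 and 114 CPM per kb. Of these 10 genes 9 were lower in batch 2 and ID1, an inhibitor of DNA binding, did not pass (153, 124, 103 and 154 CPM). With t numbers as replicates 8 remained lower, EEF1A1 being lost (adjusted p = 0.0928). With gene span taken into account 7 were lower, EEF1A1 and RPL36 being lost (adjusted p = 0.0705 and 0.234), and ID1 turned higher (0.47, adjusted p = 0.0194). RPL36 overlaps LONP1 and CSKMT holds the small nucleolar RNA gene SNORA57, and since strand-specific counting is not stated, reads of such pairs may be shared.

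Among noncoding genes, MALAT1 and NEAT1, whose RNAs are found in nuclear speckles and paraspeckles, ranked 11 and 15 by CPM among nuclear genes. MALAT1 had 1686, 1774, 1575 and 1677 CPM, with only a narrow gap between batches. NEAT1 had 979, 1152, 1266 and 1356 CPM (adjusted p = 0.172). PVT1, a long noncoding gene often amplified in tumours, had 831 and 975 against 1328 and 1470 CPM (0.63, adjusted p = 0.00747), a call lost with t1 alone (0.29, adjusted p = 0.31), with t numbers as replicates (adjusted p = 0.273) and without replicate 4 (adjusted p = 0.126).

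The make-up of the counts by RefSeq class differed between batches by more than it did within them. Protein-coding genes took 74.5% ± 0.243 (SD, n = 2) of counts in batch 1 and 82.2% ± 0.13 in batch 2. Mitochondrial genes took 3.67% and 4.62% in batch 1 against 0.705% and 0.934% in batch 2. Long noncoding genes took 8.03% ± 0.351 against 6.44% ± 0.0438. Small nuclear RNA genes, whose products build the spliceosome, took 0.534% and 0.401% against 0.098% and 0.118%. For ribosomal RNA genes in the table the values were 0.26% and 0.186% against 0.0999% and 0.101%, and for small nucleolar RNA genes 0.167% and 0.159% against 0.0896% and 0.0867%. None of these classes overlapped between batches, but 2 samples against 2 cannot give an exact permutation p below 0.33. Of the classes, other small RNAs had the widest relative spread in batch 2, at 0.0438% in replicate 3 and 0.0895% in replicate 4.

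**Figure D2:**
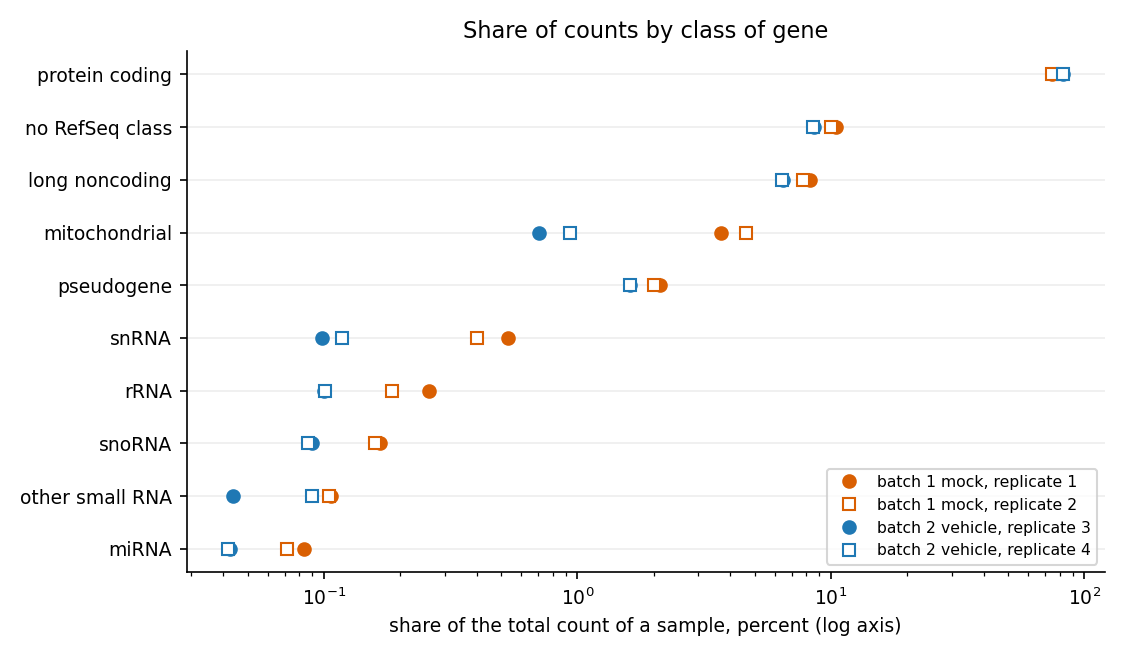
Share of each sample's total count taken by each class of gene (x axis, percent, log scale), with 1 marker per untreated sample, filled or open by replicate and coloured by batch. Batch 2 markers lie to the right for protein-coding genes (82.1% and 82.3%) and to the left for mitochondrial genes (0.705% and 0.934%).

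Luminal prostate genes were transcribed in all 4 samples. Of 30 luminal markers 29 reached 1 CPM in every sample, with a median of 4.11 CPM per kb. Ordered per kilobase by the mean over the 4 samples, FOXA1 stood first among the luminal genes named here at 73.4 CPM per kb. HOXB13 (37.2), KLK2 (27) and FOLH1 (18.1), which encodes prostate-specific membrane antigen, came next. KLK3 (16.9), KRT18 (14), the serine protease gene TMPRSS2 (10.1) and KRT8 (1.68) followed. The means of KLK3, KRT18 and KRT8 pool batches that differed, as given below, so their places need not hold within either batch. FOXA1 was level across samples, at 420, 419, 422 and 412 CPM. HOXB13 had 152, 151, 138 and 152 CPM. Neither passed the test between batches, although with gene span taken into account each was called higher in batch 2 (log2 0.41 for FOXA1 and 0.43 for HOXB13).

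Of 29 tested luminal markers 5 were higher and 9 lower in batch 2, with a median log2 difference of -0.0091 (1 and 5 with t numbers as replicates). Over all genes tested 22.9% were higher and 28.2% lower, so the luminal shares lay near the background. KLK3 had the lowest value of them. It had 184 and 182 CPM in batch 1 and 16.9 and 13.3 in batch 2, a log2 difference of -3.60 (SE 0.14, edgeR adjusted p = 5.11e-11), and each of the 4 mock libraries lay between 145 and 222 CPM. Its neighbour KLK2, also induced by androgens, had 169, 178, 249 and 173 CPM, so that replicate 4 lay with batch 1. TMPRSS2 had 428, 411, 485 and 453 CPM and FOLH1 had 1001, 1177, 1317 and 1115 CPM, and neither passed the test. The luminal keratin genes were lower in batch 2: KRT8 had 124 and 114 against 54.9 and 60.2 CPM (-1.05), and KRT18 had 85.4 and 75.8 against 33.9 and 32.1 (-1.29).

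**Figure D3:**
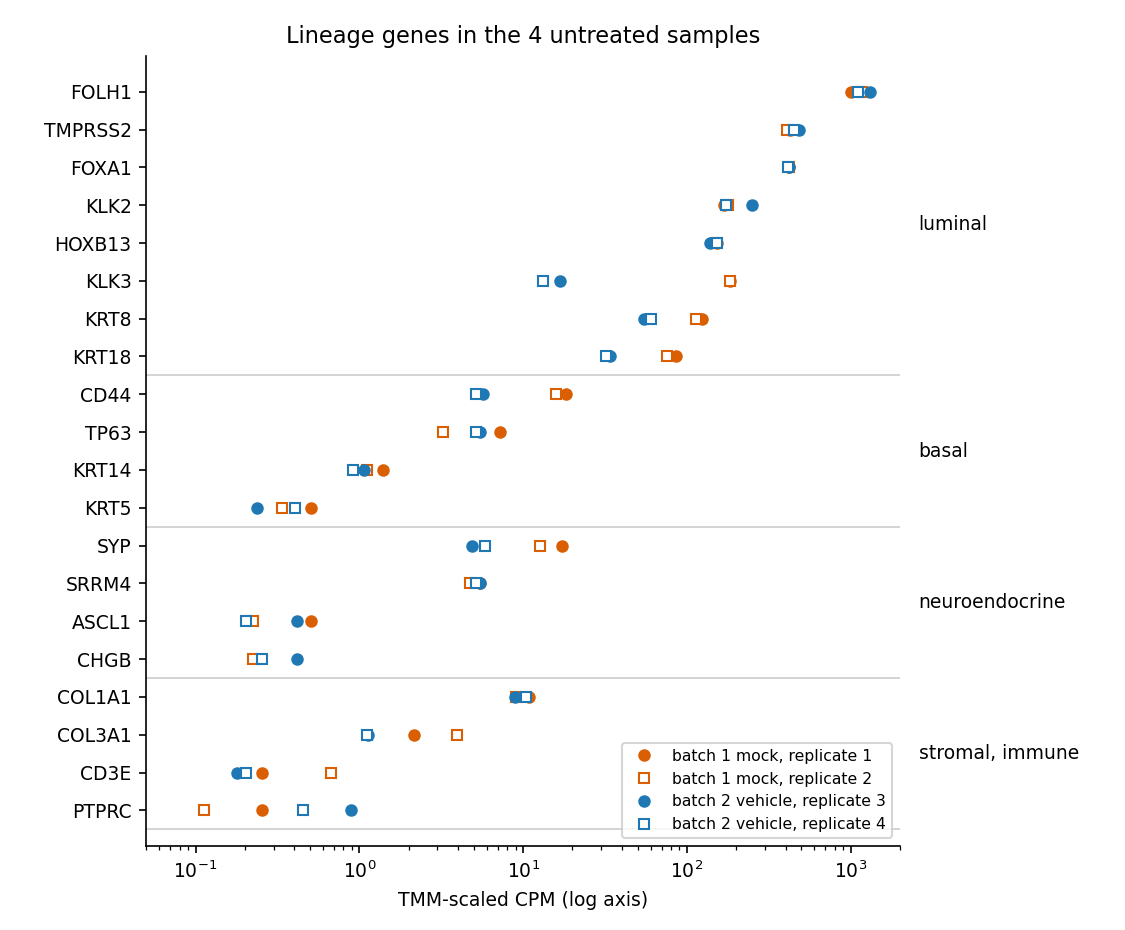
TMM-scaled CPM (x axis, log scale) of lineage genes (y axis), with 1 marker for each of the 4 untreated samples. Luminal genes such as FOXA1 (412 to 422 CPM) lie far to the right of basal genes such as KRT5 (0.238 to 0.508 CPM), and KLK3 is split by batch, at 182 and 184 against 13.3 and 16.9 CPM.

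Markers of other cell types were lower as lists, but not all were absent. Medians were 0.0494 CPM per kb over 16 basal markers, 0.0497 over 16 neuroendocrine, 0.0446 over 10 fibroblast, 0.0379 over 10 immune and 0.0459 over 8 endothelial markers. At least 1 CPM in every sample was reached by 7 basal, 6 neuroendocrine, 5 fibroblast, 2 immune and 5 endothelial markers. The highest mean CPM in these lists was 32.5, 12.6, 10.4, 50.3 and 45.6 in the same order. The basal factor gene TP63 had 7.24, 3.25, 5.48 and 5.12 CPM and the basal keratin gene KRT5 between 0.238 and 0.508, near the 0.154 to 0.374 CPM that 3 counts are worth in these samples. CHGA, the chromogranin that defines neuroendocrine cells, had 0 counts in all 4 samples, the only 1 of the 16 neuroendocrine markers to do so. Summed over each list, basal markers had 85.3, 75, 65.3 and 63.2 CPM, neuroendocrine 65.2, 53.1, 35.5 and 36.7, fibroblast 31.8, 31.5, 35.9 and 36.5, immune 48.9, 62.6, 54.1 and 51.8, and endothelial 122, 127, 58.7 and 55.5. Most of the immune sum was CD68, a lysosomal protein gene also active outside macrophages (45.2, 59.1, 49.1 and 47.7 CPM). The endothelial sum fell with EMCN (66.8, 74.2, 23.6 and 17.8 CPM) and VWF (31.1, 32.1, 16.9 and 18.6). Of the tested markers 3 of 11 basal, 3 of 8 neuroendocrine, 2 of 7 endothelial and 1 of 8 fibroblast genes were lower in batch 2, 2 fibroblast genes were higher, and neither of the 2 immune genes was called, against the 28.2% lower and 22.9% higher over all genes. In bulk samples, fewer cells that transcribe a gene and less transcription per cell cannot be told apart. The part of these genes in other differences was not tested.

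Genes known for their alteration in prostate cancer were also measured. MYC had 247, 258, 285 and 267 CPM without a called difference. ETV1, an ETS factor gene rearranged in LNCaP, had 8.77 and 8.74 against 2.44 and 3.24 CPM (-1.61, adjusted p = 2.81e-05). GSTP1, a detoxification gene silenced by promoter methylation in most prostate cancers, was at 0.381, 0.336, 0.0596 and 0.253 CPM, at or near the value of 3 counts. Of 23 tested genes on this list 12 were higher and 5 lower in batch 2, with a median log2 difference of 0.33, against 22.9% higher and 28.2% lower over all genes tested. The list has a median span of 76.9 kb, and after the span correction 9 were higher and 5 lower (median 0.19). Higher ones included AKT1 (0.90), KMT2D (0.93) and CHD1 (0.94), which encode a growth kinase, a histone methyltransferase and a chromatin remodeller. With t numbers as replicates the counts were 7 and 2.

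The question that the 2 batches allow is how far untreated LNCaP samples of 1 series differ. Between batches 13934 of 27253 genes (51.1%) passed the test, 6246 higher (22.9%) and 7688 lower (28.2%) in batch 2 (edgeR quasi-likelihood, adjusted p under 0.05). Differences of at least 4-fold were called for 220 genes upwards and 723 downwards. The median absolute log2 ratio was 0.195 between the batch 1 samples, 0.137 between the batch 2 samples and 0.418 to 0.517 across batches. With t1 alone 8371 genes were called, and with t numbers as replicates 7426 of 27228 (2462 higher, 4964 lower). Taking gene span into account left 10298 of 20927, split into 5164 higher and 5134 lower. Of the main calls tested with t1 alone, 99.3% kept their direction and 8001 were called again. These shares, 22.9% higher and 28.2% lower, are the background against which the counts over gene lists are to be read. List counts with t numbers as replicates, or after the span correction, belong with the calls over all genes in that setting.

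The 10 largest rises were led by MYCN, the neural member of the MYC family of growth regulators (chr2:15940550-15947004). It had 4 and 2 counts in the batch 1 samples and 563 and 890 in batch 2, or 0.508 and 0.224 against 33.6 and 45.1 CPM (log2 6.75, SE 0.31, adjusted p = 2.49e-10). SLC22A3, an organic cation transporter gene, had 17.4 and 19.4 against 490 and 574 CPM (4.85). EPHA3, an ephrin receptor gene, had 53.5 and 72.8 against 1100 and 1722 (4.48). HYLS1, a centriole gene that overlaps PUS3, stood at 0.889 and 0.448 against 15.6 and 20.6 CPM (4.77). Low in batch 1 as well were FUCA2, a fucosidase gene (0.635 and 0.336 against 9.72 and 11.3 CPM), DENND2D (0.762 and 0.673 against 15.4 and 14.6) and the zinc finger gene ZNF835 (0.762 and 0.673 against 14.8 and 9.07). NNT, the mitochondrial nicotinamide nucleotide transhydrogenase, had 1.91 and 2.24 against 32.3 and 30.5 CPM (3.91). The last were CNTNAP4, a neuronal adhesion gene (4.06), and WT1-AS (3.85), which overlaps WT1, itself 1.27 and 1.23 against 17.6 and 12.6 CPM. Genes whose batches overlapped were not eligible for these lists. MYCNOS, which overlaps the start of MYCN, stayed at 0.954 to 1.23 CPM in all 4 samples.

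The 10 largest falls held protein-coding genes, small RNA genes and 2 loci with transfer RNA genes inside. RNASE11, which overlaps RNASE12, had 300 and 211 CPM in batch 1 and 6.02 and 9.12 in batch 2 (-5.06, SE 0.207, adjusted p = 8.67e-11). LRRTM3, a synaptic gene that lies within CTNNA3, had 100 and 114 against 4.17 and 3.39 CPM (-4.83). PRMT5-DT, which contains a transfer RNA gene and overlaps HAUS4, had 1018 and 543 against 23.6 and 34.9 CPM. PDE4DIPP4, a pseudogene with 3 transfer RNA genes inside, had 1680 and 1284 against 79.4 and 88.8 CPM. VTRNA1-3, a vault RNA made by RNA polymerase III, had 101 and 79.6 against 5.07 and 5.17 CPM, and RNA5SP304, a 5S ribosomal RNA pseudogene, 173 and 119 against 6.02 and 9.68. The mitochondrial transfer RNA genes MT-TM and MT-TP fell by 4.14 and 4.12 on the log2 scale. PCDHB2, a clustered protocadherin gene, had 16.4 and 14.7 against 0.656 and 0.709 CPM (-4.48). KRT39, a hair keratin gene, had the lowest log2 value (-7.02) but rested on the t2 libraries: its mock libraries had 1.86 and 6.45 CPM in t1 and 101 and 735 in t2, and with t1 alone the difference was -1.68 (adjusted p = 0.00804). In irradiated samples KRT39 did not pass (0.72, adjusted p = 0.112). All 20 of these rises and falls were called with t1 alone, t2 alone and t numbers as replicates.

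A set of 18 genes, chosen after their values were seen, was under 1 CPM in both samples of 1 batch and at 5 CPM or more in both of the other. Of these, 8 were high in batch 2: MYCN, HYLS1, DENND2D, ZNF835, FUCA2, ZNF594, the pseudogene FGD5P1 and ID4, which encodes an inhibitor of DNA binding. The other 10 were high in batch 1: PCDHB2, PCDHB5, HTATIP2, CD27, RND1, RNA5SP263 and 4 genes without a symbol. CD27, a tumour necrosis factor receptor gene of lymphocytes, had 10.4 and 8.18 against 0.656 and 0.912 CPM and RND1 had 10.2 and 7.85 against 0.477 and 0.101. CD27 overlaps TAPBPL, HYLS1 overlaps PUS3 and ZNF594 overlaps USP6, so reads of these pairs may be shared. No value of the rule came from the 8 treated samples, 2 of batch 1 and 6 of batch 2, and there all 18 genes were again separated by batch. Genes high in batch 2 stayed at or under 1.58 CPM in the treated batch 1 samples and at or above 4.25 CPM in those of batch 2. Genes high in batch 1 stayed at or under 1.21 CPM in treated batch 2 samples and at or above 2.25 CPM in those of batch 1.

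**Figure D4:**
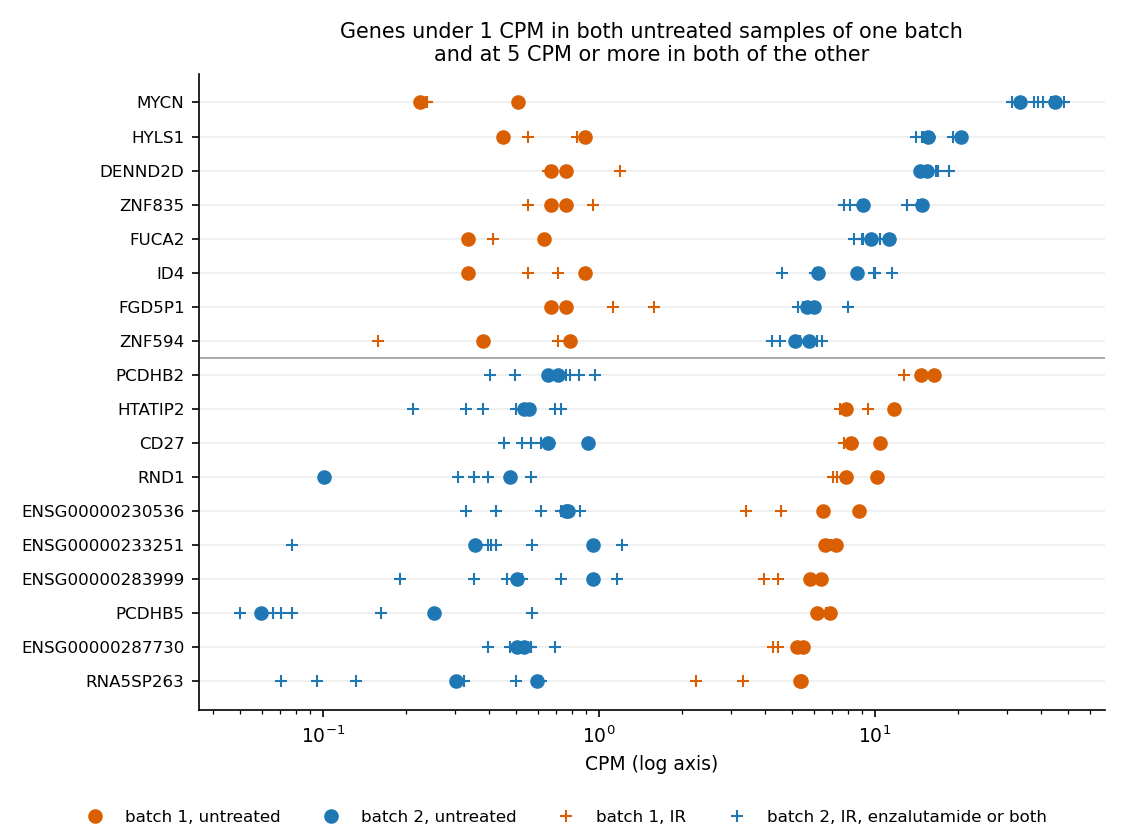
CPM (x axis, log scale) of the 18 genes (y axis) in every sample of the series, circles for untreated and crosses for treated samples, coloured by batch. The line divides the 8 genes that are high in batch 2 from the 10 that are high in batch 1, and in each gene the batches do not overlap.

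Upstream sequence is shown for 4 of these genes, MYCN and HYLS1 from those high in batch 2 and PCDHB2 and HTATIP2 from those high in batch 1. Each run is the 250 bases before the annotated start (RefSeq GRCh38.p14, strand of the gene, 5′ to 3′) with every CG in capitals. The regions are chr2:15940300-15940549 for MYCN, chr11:125887418-125887667 for HYLS1, chr5:141094365-141094614 for PCDHB2 and chr11:20363464-20363713 for HTATIP2, all on the + strand.
MYCN: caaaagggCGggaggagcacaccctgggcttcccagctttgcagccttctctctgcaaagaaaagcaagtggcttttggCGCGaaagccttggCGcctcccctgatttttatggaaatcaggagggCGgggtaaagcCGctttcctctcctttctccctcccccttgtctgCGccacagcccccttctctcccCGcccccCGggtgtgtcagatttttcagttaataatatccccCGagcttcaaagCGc
HYLS1: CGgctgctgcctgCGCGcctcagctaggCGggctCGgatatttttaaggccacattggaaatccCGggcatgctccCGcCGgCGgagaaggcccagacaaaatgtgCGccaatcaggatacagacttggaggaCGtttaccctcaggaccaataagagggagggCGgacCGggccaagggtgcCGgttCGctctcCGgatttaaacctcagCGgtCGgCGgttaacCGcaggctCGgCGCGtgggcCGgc
PCDHB2: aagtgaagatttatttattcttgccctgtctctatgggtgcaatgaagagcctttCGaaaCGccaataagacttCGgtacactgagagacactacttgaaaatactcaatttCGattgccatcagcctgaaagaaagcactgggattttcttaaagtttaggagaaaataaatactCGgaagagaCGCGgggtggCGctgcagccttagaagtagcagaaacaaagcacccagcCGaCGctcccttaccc
HTATIP2: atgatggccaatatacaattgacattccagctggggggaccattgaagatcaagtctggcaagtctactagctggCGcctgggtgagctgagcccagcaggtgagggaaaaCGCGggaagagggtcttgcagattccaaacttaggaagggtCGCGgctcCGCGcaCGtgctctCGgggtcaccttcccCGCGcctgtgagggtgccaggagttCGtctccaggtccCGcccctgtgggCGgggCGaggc
The motif searched was CG, which reads the same on both strands. It occurred 11 times before MYCN, 24 times before HYLS1, 10 times before PCDHB2 and 15 times before HTATIP2. Over 35116 promoters of the same length the median was 11, the quartiles were 3 and 23, and 93.9% held at least 1. The 4 promoters shown thus lay from the middle to just above the upper quartile of all promoters. CG was also counted before FUCA2 (12) and DENND2D (4) of this set and before EPHA3 (15). DENND2D lay below the median, so the range of the 4 does not stand for the set. Counts of CG are a description of these letters and say nothing of their methylation.

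The direction of the batch difference ran with gene span. Among protein-coding genes the median log2 difference was -1.30 for the 88 genes under 1 kb, -0.67 for 1 to 3 kb, -0.38 for 3 to 10 kb, -0.09 for 10 to 30 kb, 0.17 for 30 to 100 kb, 0.32 for 100 to 300 kb and 0.30 above 300 kb. In irradiated samples the corresponding medians ran from -1.19 under 1 kb to 0.28 at 100 to 300 kb and 0.069 above 300 kb. Replicates 3 and 4 differed from each other by at most 0.06 in any of these classes. The batch 1 samples did differ with gene span. Replicate 2 minus replicate 1 was -0.24 under 1 kb, -0.12 at 1 to 3 kb and 0.11 at 100 to 300 kb. The t number moved with gene span: t2 minus t1 in mock cells was 0.54 at 1 to 3 kb and -0.27 at 100 to 300 kb. In irradiated cells it was -0.59 and 0.26. Replicate 1 summed 3438642 counts of t1 and 4584347 of t2, and replicate 2 summed 5633290 and 3583636. The replicate difference thus includes an unequal mix of t numbers, and the 2 are not separate observations. With t1 alone the batch difference was -0.34 at 1 to 3 kb and 0.24 at 100 to 300 kb, and with t2 alone -0.88 and 0.48, so that its direction was present with either. For several groups of short or long genes the values after a correction for gene span are also given, an alternative added after the data were seen.

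**Figure D5:**
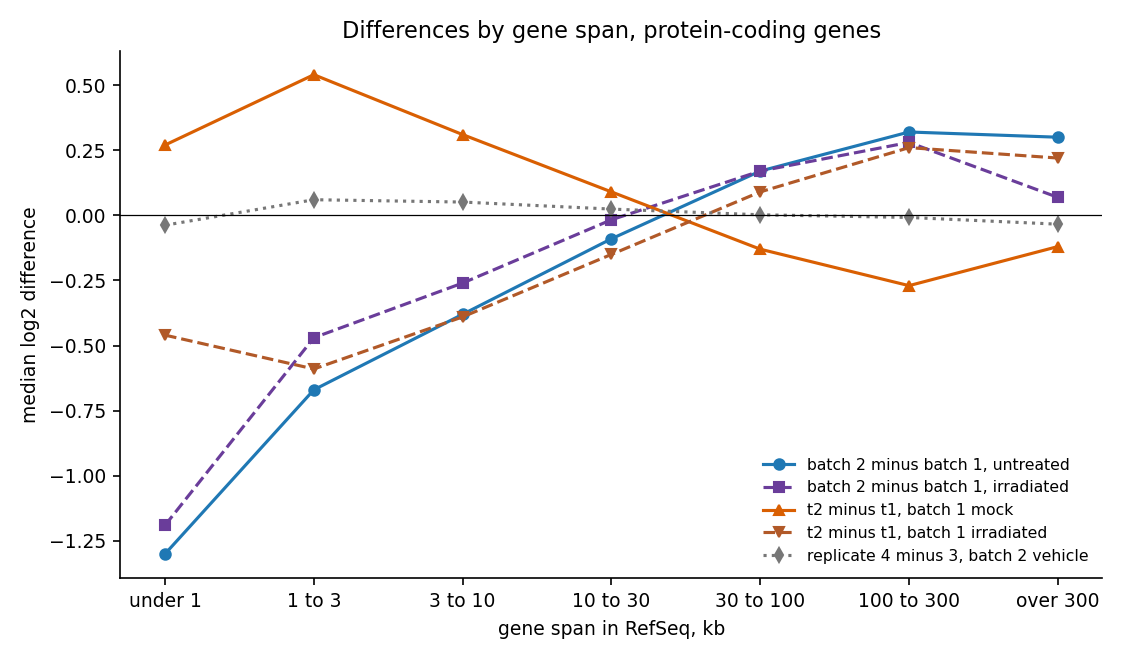
Median log2 difference (y axis) of protein-coding genes in 7 classes of RefSeq gene span (x axis, kb), for the batch difference in untreated and irradiated samples, for t2 minus t1 in batch 1 mock and irradiated libraries, and for replicate 4 minus 3 of batch 2. The untreated batch difference runs from -1.30 under 1 kb to 0.32 at 100 to 300 kb, while replicates 3 and 4 stay near 0. Replicate 2 minus 1 of batch 1 mock is not drawn (-0.24 under 1 kb and 0.11 at 100 to 300 kb).

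By class, mitochondrial genes shifted most. Of 37 mitochondrial genes 36 were lower in batch 2 (median log2 -3.04), as were 17 of 17 ribosomal RNA genes, 32 of 36 small nuclear RNA genes (-1.78) and 53 of 101 microRNA genes. Small nucleolar RNA genes went the other way by number of genes, with 69 of 150 higher and 14 lower (0.81). Their summed share of counts was nonetheless lower in batch 2, at a mean of 0.0881% against 0.163%. The number of genes called thus does not give the direction of the class total. Most small nucleolar RNA genes lie within introns of longer host genes, whose reads such counts may include. Long noncoding genes had 1333 of 3247 lower and 351 higher, a median of -0.31. Over all genes tested 28.2% were lower and 22.9% higher. Of 17 tested prostate or nuclear long noncoding genes fixed in a list, 8 were lower and 1 was higher, and 5 were lower with t numbers as replicates. PCA3, a urinary marker of prostate cancer, had 39.9 and 26.9 against 16.4 and 13.7 CPM. In a list of 25 tested small RNAs and products of RNA polymerase III, 20 were lower and 0 higher (median -1.99), and 18 were lower with t numbers as replicates and 18 after the span correction. RPPH1, the RNA of ribonuclease P, had 64.3 and 73.2 against 14.2 and 16.9 CPM. RNY4, a Y RNA, had 2.67 and 3.7 against 0.298 and 0.405 CPM. RN7SK, the RNA that holds the elongation kinase P-TEFb inactive, had 9.53, 9.53, 7.09 and 11.2 CPM and did not pass.

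Immediate early genes, which respond to growth factors and stress within minutes, were lower in batch 2. Of 28 tested, 22 were lower and 0 higher, with a median of -1.04, against 28.2% lower over all genes. FOS had 36.5 and 24.7 against 8.35 and 5.67 CPM, JUNB 263 and 247 against 67.1 and 71.8, and DUSP1, a phosphatase gene that damps the same signal, 218 and 189 against 64.2 and 62.6. None of these 3 overlapped between batches. JUN had 191 and 177 against 91.6 and 75.3 CPM. With t numbers as replicates 16 were lower, and after the span correction 17 were lower and 1 higher (median -0.64), the list having a median span of 4.35 kb. In irradiated samples 19 of 27 were lower, against 8057 of 27611 over all genes tested there.

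Genes of the integrated stress and unfolded protein responses went the same way. Of 26, 14 were lower and 0 higher (median -0.57), against 28.2% lower over all genes. With t numbers as replicates 13 were lower. After the span correction 11 were lower and 1 higher (median -0.21), the list having a median span of 12.9 kb. In irradiated samples 16 were lower and 4 higher, where 8057 of all 27611 genes tested were lower and 7092 higher. ATF4, the central factor of the integrated stress response, had 470 and 324 against 96.7 and 89.9 CPM (-2.09), and HSPA5, the main chaperone of the endoplasmic reticulum, 138 and 91.7 against 42.1 and 44.8 (-1.40). ASNS, an asparagine synthetase gene and ATF4 target, had 37.9, 38.6, 45.2 and 40.4 CPM and did not pass. Heat shock genes were mixed, with 3 of 16 higher and 7 lower (3 and 3 with t numbers as replicates), HSPH1 rising from 35.7 and 36.1 to 75.7 and 67.6 CPM and HSP90AB1 falling (-0.89). HSPA1A was listed with 0 counts in all samples described here. Of 21 interferon genes 10 were lower, but 5 with t numbers as replicates. IFI44 had 7.37 and 4.04 against 0.656 and 1.11 CPM. IRF9, a factor of the interferon response, was at 276 CPM in the t2 library of replicate 2 and between 9.27 and 13.9 in the other mock libraries. Its fall (-2.19) turned to 0.37 without that replicate, and DESeq2 did not call it (adjusted p = 0.216).

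Androgen-responsive genes did not move as a block with KLK3. Of 38 tested, 15 were higher and 11 lower in batch 2, with a median of 0.14. The shares over all genes tested were 22.9% higher and 28.2% lower. Lower members included GNMT, a methyltransferase gene (17.7 and 15 against 3.76 and 4.46 CPM), SAT1, a polyamine enzyme gene (41.5 and 32.1 against 14.6 and 14.7), and FKBP5 (222 and 202 against 146 and 161). Higher members included the luminal factor gene SPDEF, at 48.7 and 39.9 against 83.9 and 71.9 CPM. With t numbers as replicates 1 was higher, SPDEF, and 8 were lower, FKBP5 not being among them (adjusted p = 0.123). Over all 27228 genes that setting also called fewer rises, 2462 higher against 4964 lower. With t1 alone 5 were higher and 9 lower, where 3199 of all 26238 genes tested were higher and 5172 lower. With t2 alone the list had 21 and 10, where 7686 of 26340 genes were higher and 7882 lower.

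Cell cycle genes were mixed. Of 31 genes of the G2 and M phases 11 were higher and 5 lower (3 and 2 with t numbers as replicates). MKI67 had 77 and 83.7 against 147 and 134 CPM, while the mitotic kinase gene AURKB had 166 and 109 against 50.2 and 62.6. In S phase genes 6 of 27 were higher and 8 lower (0 and 5 with t numbers as replicates). Over all genes tested 22.9% were higher and 28.2% lower, so the S phase shares lay near the background. PCNA, the sliding clamp of replication, had 189 and 126 against 44 and 46 CPM (-1.81).

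Metabolic and housekeeping lists were described next, against 22.9% higher and 28.2% lower over all genes tested. The sterol and transcription machinery lists lay near these shares. In sterol and lipid synthesis 7 of 29 genes were higher and 7 lower (1 and 2 with t numbers as replicates). FASN, the fatty acid synthase, had 296 and 318 against 449 and 446 CPM (0.55), a call lost with t numbers as replicates (adjusted p = 0.141). In hypoxia and glycolysis 1 of 26 was higher and 10 were lower (0 and 5 with t numbers as replicates, 1 and 9 of 25 after the span correction), PFKP having 62 and 65.1 against 24.7 and 26.6 CPM. Ribosome biogenesis had 10 of 26 higher and 6 lower (5 and 3 with t numbers as replicates). Among 27 genes of the transcription machinery 8 were higher and 6 lower (2 and 4 with t numbers as replicates). HEXIM1, which with RN7SK inhibits P-TEFb, had 306 and 212 against 53.8 and 58.3 (-2.21). POLR2A, the largest subunit of RNA polymerase II, had 203 and 205 against 129 and 131 CPM (-0.65).

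Some gene families were looked at after their values were seen. The 16 protocadherin beta genes summed to 37.2 and 34 CPM in batch 1 and 2.74 and 3.24 in batch 2. Only 7 of them were tested, and all 7 were lower in batch 2. The filter lets a gene enter on its counts in a single batch, here mostly batch 1. The count of lower genes is therefore no support beyond the sums. In the protocadherin alpha cluster beside it 0 of 15 were called, with sums of 64.3 and 53.6 against 62.8 and 67.3 CPM. In the gamma cluster 19 of 22 were lower (1126 and 1175 against 679 and 763 CPM), but these genes overlap and share exons, so that their values are not separate measurements. These proteins are cell adhesion molecules with a choice of promoters in neurons. Replication-dependent histone genes had 50 of 59 lower and 2 higher, summing to 21683 and 15907 against 6162 and 5750 CPM, and 47 lower and 5 higher after the span correction. Histone copies are near identical, so reads may be split among them. Of 14 genes of the metallothioneins, which bind metal ions, 5 were tested. All 5 were lower (79.9 and 72.6 against 20.1 and 16.7 CPM summed), 4 of them after the span correction. These too may have passed the filter through batch 1 alone. Of 239 zinc finger genes on chromosome 19, 114 were lower and 20 higher. Over all genes tested 28.2% were lower and 22.9% higher.

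Along the chromosomes, 15222 windows of 25 neighbouring protein-coding genes were described by the median log2 difference of each, and the median over windows was 0.056. The lowest windows without overlap held the histone clusters on chromosome 6 (-1.61 and -1.58). Next came chr14:23381987-24216066, from MYH6 to MDP1 (-0.93, with 15 of 25 genes lower). The highest were chr2:160272151-168247595, from RBMS1 to STK39 (0.70, 14 of 25 higher), and 2 windows on chromosome 7 (both 0.63). Chromosome 7 also had the highest median of any chromosome, 0.25 over 750 genes, and 0.24 after the span correction. In irradiated samples that chromosome's median was 0.28.

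The same difference between batches was then read in the irradiated samples, which share no library with the untreated ones but come from the same batches. There 15149 of 27611 genes (54.9%) were called. Of 13750 genes called in untreated and tested in both, 13496 (98.2%) had the same direction and 11650 (84.7%, or 78.8% of the 14787 irradiated calls) were also called. Of the 882 genes called at 4-fold or more in untreated samples and tested in both, 817 differed by at least 2-fold in the same direction. KLK3 was at 152 and 135 CPM in irradiated batch 1 and at 12 and 8.83 in batch 2 (-3.77), LRRTM3 at 77.2 and 79 against 2.16 and 2.69 (-5.01), and SLC22A3 at 15.1 and 17 against 462 and 523 (4.93). The test of whether the batch difference itself changed with radiation called 31 of 29195 genes (0.106%). FAP, a fibroblast marker called higher in untreated batch 2 (0.762 and 0.561 against 2.68 and 2.18 CPM), had 0.628 and 1.85 against 1.21 and 1.84 CPM in irradiated samples and did not pass there (0.21, adjusted p = 0.681). The interaction test did not call FAP (adjusted p = 0.806).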

How the data were processed

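The authors deposited raw counts per gene for 60605 Ensembl identifiers, 1 table per batch, from PRO-seq of LNCaP cells. The submitters' processing notes name hg38, cutadapt 1.8.1, Bowtie2 2.4.4 and SAMtools 1.9, with no role. The counting tool, the counted part of a gene, the use of strand and the handling of duplicate reads are not given in the sources used here. Gene names were matched for 99.8% of identifiers, and class, position and span for 66.4%, by symbol, from RefSeq GRCh38.p14.

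Counts of t1 and t2 were summed per batch 1 replicate. Levels are CPM scaled by edgeR's trimmed mean of M values (factors 0.972 to 1.03). Batch 2 was tested against batch 1 with edgeR 4.0.16 (R 4.3.3), by filterByExpr and the quasi-likelihood test, two-sided, with Benjamini-Hochberg adjustment over all genes tested and a threshold of 0.05. On simulated data made from the untreated samples it recovered 36.5%, 86.5% and 100% of 200 genes changed 1.5-, 2- and 4-fold (26521, 26584 and 26533 genes), and 16.1%, 6.99% and 6.54% of its calls were false. Those 200 genes were changed as often up as down, with all others equal. In the data 51.1% of genes were called, so these rates may not hold for the comparison of batches. The same test was run in irradiated samples, and an interaction of batch and radiation over both sets.

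Named genes were the 10 with the highest CPM and the 10 protein-coding genes of at least 1 kb with the highest CPM per kb. Added to these were the 10 largest rises and falls between batches with a mean of at least 50 counts and no overlap. A fixed panel gave 36 genes. Each of 21 lists gave up to 4, the called members with the largest absolute log2 difference, so these examples were picked by value. Each class of gene gave the 5 nuclear genes with the highest CPM. Genes named outside these, among them CD27, were chosen after their values were seen. Members and lists were chosen with earlier results of these data known. DESeq2 1.42.0, other scalings and filters, samples left out, t1 or t2 alone, t numbers as replicates and a span correction were alternatives. The last 2 were chosen after seeing the data. Some members of these lists are not reported here. Counting precision is set by depth: 3 counts are worth 0.374 CPM in the shallowest sample and 0.154 in the deepest.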

Additional observations from a re-analysis of the deposited data

Results flagged for a closer look

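For 3 of the named genes the difference between batches itself differed between irradiated and untreated samples, by edgeR's test of the interaction of batch and radiation over 29195 genes. KRT39 had a batch difference 7.71 higher on the log2 scale with radiation than without (adjusted p = 0.00252), and it stood at 61.5 and 309 CPM in untreated batch 1 against 3.3 and 5.26 CPM in irradiated batch 1. The untreated level of KRT39 came mainly from the t2 libraries (101 and 735 CPM against 1.86 and 6.45 CPM in t1). For GOLGA1 the difference was 1.76 (adjusted p = 0.00232), with 3129 and 3838 CPM in untreated and 1836 and 1837 CPM in irradiated batch 1, and 527 and 565 against 854 and 1108 CPM in batch 2. For MDM2, which encodes a ubiquitin ligase, it was -0.99 (adjusted p = 0.0268): untreated samples had 128 and 135 CPM in batch 1 and 149 and 153 in batch 2, whereas irradiated samples had 1059 and 1171 against 676 and 624 CPM.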

How the results depend on the processing

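The untreated count of 13934 called genes fell to 8371 with t1 alone and to 7426 with t numbers as replicates, and the irradiated count of 15149 fell to 6045 in the latter setting, where batch 1 differs within itself by the t number. Leaving out 1 sample gave 11149 to 13526 untreated and 11358 to 15014 irradiated calls, 23102 to 23354 genes at 1 CPM, mitochondrial shares of 3.67% to 4.62% in batch 1 and 0.705% to 0.934% in batch 2, and protein-coding shares of 74.3% to 74.6% and 82.1% to 82.3%. Scaling by relative log expression, total counts, DESeq2, other filters and t2 alone left both counts within 1.5 times. Without mitochondrial counts the protein-coding share was 77.7% in batch 1 and 82.9% in batch 2, and it was 74.8% and 73.9% in batch 1 with single t numbers. Over 192 named genes, 2705 of 2834 gene and setting pairs kept their direction and side of the threshold or were called in neither, 57 gained a call, 63 lost one and 9 turned, 8 of which are given here. The span correction turned FOXA1 to 0.41, HOXB13 to 0.43, ID1 to 0.47, RMRP to 0.12 and RN7SK to 0.56. RMRP turned to 0.22 with t2 alone. IRF9 turned to 0.21 with t1 alone and to 0.37 without replicate 2 of batch 1 mock (-3.06 without replicate 1). The cause was not tested. No paired analysis was possible because the batches share no replicate number. Depth limits the low genes: 3 counts are worth 0.374 CPM in the shallowest untreated sample.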
